A study of Mus musculus with 12 samples.

Results

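Glycolytic enzymes and genes of the response to low oxygen were followed across treatment with TGFB2, BMP4 or both. The group is a list of 33 gene symbols, listed by symbol for their known function, with no threshold on their values. Earlier results of these data were known when it and the other lists used below were chosen. The group holds 17 enzymes of glycolysis from hexokinase to lactate dehydrogenase and 12 genes of the hypoxia response. The other 4 are kinases that regulate phosphofructokinase or the pyruvate dehydrogenase complex. The 33 symbols matched 34 of the 54347 rows of the count table, because Aldoa had a second row of 2 to 17 counts per library. All 33 symbols had a row among the 15319 genes that passed the filter on low counts, and the second Aldoa row did not pass.

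The cells were mouse PYMT cells, a name used for cells of mammary tumours driven by the polyoma middle T antigen. They were grown in matrigel, a gel of basement membrane proteins, and all 4 groups share that culture. The TGFB2 group received TGFB2 at 5 ng/mL for 3 days, the BMP4 group received BMP4 at 5 ng/mL for 3 days, and the BMP4-TGFB2 group received both for the same time. The NT group is the one whose label names no ligand. The medium was then replaced, and after 2 further days the gel was depolymerised to harvest the cells. RNA was enriched for poly(A) and sequenced in 3 libraries per group. The question of the study was which programs the ligands set off, alone or together, in relation to dormancy, an arrest of tumour cells. The replicates are called biological, but nothing states how the cultures differed, and every p-value here rests on the variation among them alone. The cells are given as a cell line, with no clone or passage stated.

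Glycolysis converts glucose to pyruvate. Lactate dehydrogenase turns pyruvate into lactate, while the pyruvate dehydrogenase complex passes it to the mitochondria unless pyruvate dehydrogenase kinases switch that complex off. In low oxygen the prolyl hydroxylases of the Egln family no longer mark HIF-alpha proteins for degradation by the von Hippel-Lindau ligase, and HIF then binds short elements with the core ACGTG or GCGTG near its target genes. Many glycolytic genes, Vegfa, Car9, Bnip3 and the hydroxylases Egln1 and Egln3 themselves are known targets. HIF-alpha is controlled mostly as a protein, which RNA does not report.

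Libraries held 28543062 to 42167651 counts. Markers of epithelium, the origin of mammary tumour cells (Epcam, Cdh1, keratins and claudins), summed to 4186 to 4941 CPM (counts scaled by the library's raw total to a common total, while fold changes come from the TMM-normalised fit) in every library, and Epcam averaged 785 to 959 CPM by group. Of 7 tested, 0 rose and 2 fell with TGFB2, Cdh1 by 0.30 and Krt19 by 0.70 on the log2 scale (edgeR adjusted p = 0.0122 and 0.028, and 0.0473 and 0.0442 without the replicate block). Over all genes tested, 18.7% rose and 19.2% fell with TGFB2. Fibroblast markers summed to 5.13 to 13.5 CPM in NT and 19.9 to 32.6 CPM in TGFB2 libraries. With TGFB2 5 of 7 tested rose, and 4 without the block. Among them were Col1a1 by 2.16 and Pdgfra by 2.40 on the log2 scale (edgeR adjusted p = 3.3e-05 and 0.000268). Leukocyte markers summed to 2.49 to 5.11 CPM in NT and 8.69 to 11.3 CPM in TGFB2, and 2 of 4 tested rose, Csf1r and Cd68, the second not without the replicate block (edgeR adjusted p = 0.372). Of the 8 leukocyte markers 6 averaged under 1 CPM, as did 5 of 5 endothelial and 3 of 4 adipocyte markers, and no endothelial or adipocyte marker was called for TGFB2 against NT. Of 3 tested erythroid markers Hba-a1 rose, from 2.49 to 7.65 CPM (edgeR adjusted p = 0.00952, and 0.0653 without the block). In bulk RNA, fewer cells of a type and less RNA per cell cannot be told apart. Whether these markers came from other cells, and what part such cells would have in the results, was not tested.

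All tests carried the replicate number as a block in the edgeR quasi-likelihood model, and both replicate number and group were tested. Of the 33 members, 16 differed among the 4 groups at a Benjamini-Hochberg adjusted p under 0.05, beside 40.1% of all genes tested. Without the block 10 did, beside 22% of all genes. Among the replicate numbers 15 differed, beside 25.2% of all genes. Both tests called 11 members, 5 differed by group only, 4 by replicate number only and 13 by neither. Leaving out NT replicate 1 raised the number that differed among the groups to 23, beside 39.6% of all genes in that fit. Any other single library left out gave 14 to 16. Without replicate number 2 it was 10, beside 3214 of 15607 genes, and without replicate number 3 it was 11, beside 3192 of 15531.

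TGFB2 moved single members in both directions, with a median near 0. Against NT, 8 of 33 members rose and 7 fell, beside 18.7% of all genes that rose and 19.2% that fell, so the share of members called was close to that of all genes. The median log2 fold change was 0.06 over the members and 0 over all genes, and the median absolute change was 0.32 and 0.41. Among the 12 hypoxia response genes 6 rose and 1 fell, among the 17 glycolytic enzymes 1 rose and 4 fell, and among the 4 regulatory kinases 1 rose and 2 fell. Without the replicate block 5 members rose and 5 fell, beside 1730 and 1693 of the 15319 genes tested.

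The largest fall among the members was that of Egln3, the prolyl hydroxylase with strong induction by HIF in many cells (GRCm38 chr12:54178981-54203860, minus strand). Its CPM was 33.2, 77.4 and 31.6 in NT replicates 1 to 3, 4.13, 9.31 and 3.98 with TGFB2, 8.34, 15.5 and 11.6 with BMP4, and 3.17, 7.18 and 3.17 with both. Every treated library was below every NT library, and replicate 2 was the highest in all 4 groups. The fall was 8.21-fold with TGFB2 (log2 fold change -3.04 ± 0.18 SE, edgeR adjusted p = 1.9e-06), 3.7-fold with BMP4 (-1.89 ± 0.17, edgeR adjusted p = 0.000178) and 10.3-fold with both (-3.37 ± 0.18, edgeR adjusted p = 1.07e-06). Egln1, the hydroxylase that sets HIF-alpha turnover in normal oxygen, went from 62.5, 64.2 and 78.9 CPM in NT to 80.5, 78.6 and 95.4 CPM with TGFB2. The lowest TGFB2 value lay just under the highest NT value, while each replicate number showed a rise (log2 fold change 0.29 ± 0.08, edgeR adjusted p = 0.0118). That call was lost without the block (edgeR adjusted p = 0.168) and without TGFB2 replicate 1 (0.0625, log2 fold change between 0.25 and 0.32 over all single libraries left out).

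In TPM, a level per transcript length, Egln1 and Egln3 stood close together in NT, at means of 29.9 and 28.2. The ratio of Egln1 to Egln3 was 0.602 to 1.81 over NT libraries, 3.44 to 5.78 with BMP4, 6.12 to 17.4 with TGFB2 and 7.88 to 21.7 with both. These ranges did not overlap between NT and any treated group, and those of BMP4 lay below those of both groups with TGFB2.

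Hif1a, which encodes the HIF-alpha subunit of most cells (GRCm38 chr12, plus strand), was between 122 and 169 CPM in all 12 libraries. It averaged 135.5 ± 9.18 CPM in NT (SD, n = 3), 143 ± 16.4 with TGFB2, 131 ± 8.66 with BMP4 and 152 ± 24.8 with both. No comparison called it, and its log2 fold change with TGFB2 was 0.05 ± 0.12 (edgeR adjusted p = 0.775). Other parts of the HIF machinery moved apart from each other. Of 11 tested genes 1 rose and 4 fell with TGFB2, beside 18.7% and 19.2% of all genes. The counts without the block were 1 and 2. Epas1, which encodes the second HIF-alpha subunit, fell from 30.5 to 12.01 CPM on average (log2 fold change -1.42, edgeR adjusted p = 0.00803). Arnt, the shared beta subunit, fell by 0.41 on the log2 scale (edgeR adjusted p = 0.0107). Egln2, the third hydroxylase, fell by 0.47 (edgeR adjusted p = 0.0164, and 0.202 without the replicate block), and Cul2, the scaffold of the ligase, by 0.38 (0.0355, and 0.0777 without the block); both are named to complete the count, after their values were seen. Arnt2, a further beta subunit, had 0.397 CPM in NT and 1.22 CPM with TGFB2 (log2 fold change 1.5, edgeR adjusted p = 0.0567). Cited2, which competes with HIF for its coactivators, rose by 0.79 (edgeR adjusted p = 0.000288). Vhl, the substrate receptor of the ligase, had 28.3 CPM in NT and 32.9 with TGFB2 (log2 fold change 0.18, edgeR adjusted p = 0.249).

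**Figure D1:**
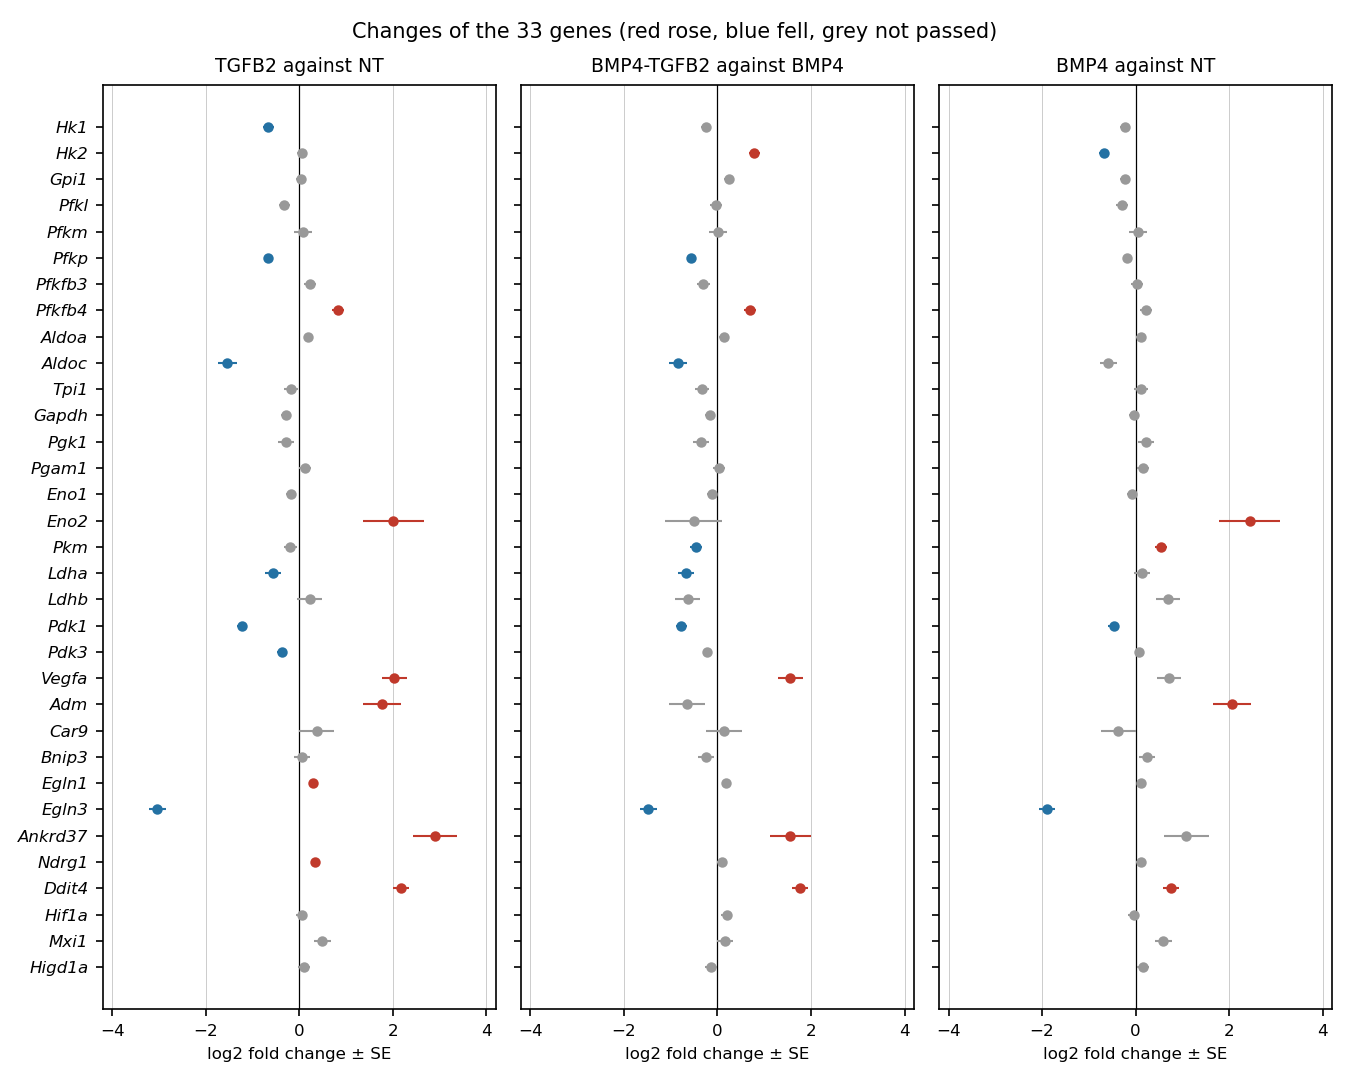
Log2 fold change of each of the 33 genes with its SE, from the edgeR model with a replicate block. The panels are TGFB2 against NT, BMP4-TGFB2 against BMP4 and BMP4 against NT, and each SE was derived from the F statistic. Points in red rose, points in blue fell and grey points did not pass; Egln3 lies farthest left in all 3 panels, while Ddit4 and Vegfa lie right of 1.5 in both panels for TGFB2.

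The rises with the smallest p-values were those of Ddit4 and Vegfa. Ddit4, an inhibitor of mTORC1 signalling (GRCm38 chr10:59949669-59951834, minus strand), was at 219, 95.8 and 94.1 CPM in NT and at 731, 494 and 541 CPM with TGFB2. With BMP4 it was at 293, 142 and 218 CPM, and with both at 951, 646 and 609 CPM. All 6 libraries with TGFB2 were above all 6 without it. The rise with TGFB2 was 4.52-fold (log2 fold change 2.18 ± 0.17, edgeR adjusted p = 1.17e-05).

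Vegfa, the endothelial growth factor (GRCm38 chr17:46016993-46032369, minus strand), was at 181, 52.0 and 53.4 CPM in NT and at 480, 217 and 379 CPM with TGFB2. With BMP4 it was at 221, 95.7 and 111 CPM, and with both at 447, 290 and 444 CPM. Replicate 1 was the highest library in NT, TGFB2 and BMP4 and lay close to replicate 3 with both, and the TGFB2 libraries were all above those of NT. The rise with TGFB2 was 4.09-fold (log2 fold change 2.03 ± 0.27, edgeR adjusted p = 0.000244), with 1.40, 2.05 and 2.81 for replicates 1 to 3 on log2(CPM + 0.5).

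Ankrd37, an ankyrin repeat protein used as a HIF target marker, was low. It had 0.479, 0.336 and 0.359 CPM in NT and 6.07, 2.11 and 1.86 CPM with TGFB2 (log2 fold change 2.91 ± 0.47, edgeR adjusted p = 0.000977). Its exons overlap those of Ufsp2, which averaged 20.4 CPM against 1.85 CPM of Ankrd37, and the reads carry no strand. Ufsp2 itself had a log2 fold change of -0.26 with TGFB2 (edgeR adjusted p = 0.0928). Adm, which encodes the vasodilator peptide adrenomedullin, had 1.65, 0.224 and 0.659 CPM in NT, 3.44, 2.37 and 1.58 CPM with TGFB2 and 6.64, 1.91 and 1.83 CPM with BMP4. The NT and TGFB2 values overlapped, and each replicate number was higher with TGFB2 (log2 fold change 1.77 ± 0.40, edgeR adjusted p = 0.00655, and 0.171 without the replicate block).

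Ndrg1, a stress-responsive gene, had 157, 73.4 and 69.0 CPM in NT and 196, 84.8 and 101 CPM with TGFB2. Groups overlapped and replicate 1 was far above the others in both, so the rise of 0.34 ± 0.10 on the log2 scale (edgeR adjusted p = 0.0243) was visible within replicate numbers only. It did not pass without the block (edgeR adjusted p = 0.64), nor without NT replicate 3, TGFB2 replicate 1 or TGFB2 replicate 3 (edgeR adjusted p between 0.0712 and 0.133, log2 fold change 0.25 to 0.43 over all libraries left out). Car9, Bnip3 and Higd1a were not called in any comparison. Car9, a carbonic anhydrase of the cell surface, had 1.35 to 5.92 CPM over the 12 libraries. Bnip3, a mitophagy receptor, had 15.7 to 23.0 CPM, and Higd1a, a mitochondrial protein, had 34.5 to 50.3 CPM. The share of the partner Gm12454, which overlaps Car9 exons, was 24.1% of the mean CPM of Car9. Mxi1, a repressor related to MYC antagonists, had 65.9, 33.3 and 41.0 CPM in NT and 73.3, 67.5 and 85.9 CPM with both ligands, where it rose (log2 fold change 0.74 ± 0.18, edgeR adjusted p = 0.00896). With TGFB2 alone it had 59.9, 60.8 and 73.6 CPM (log2 fold change 0.49 ± 0.18, edgeR adjusted p = 0.0588).

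**Figure D2:**
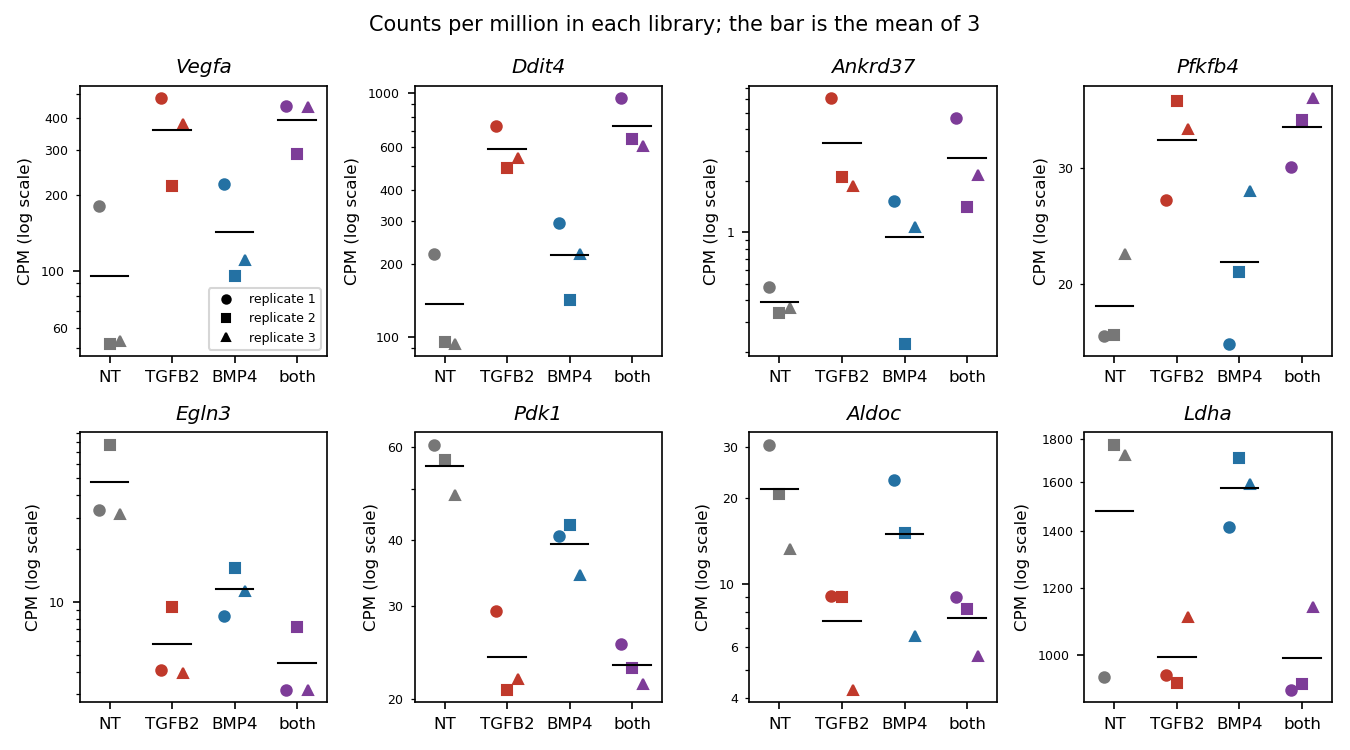
CPM of 8 genes in each library on log axes that differ by panel, with a horizontal bar at the mean of 3 and 1 marker shape per replicate number; "both" stands for BMP4-TGFB2. Ddit4 and Vegfa are highest in the groups with TGFB2, Egln3 and Pdk1 are lowest there, and Ldha in NT replicate 1 (942 CPM) lies with the TGFB2 libraries.

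The promoters of 4 genes are shown because these moved the same way with TGFB2 in both backgrounds, Egln3, Pdk1 and Aldoc down and Ddit4 up, with the smallest p-values for TGFB2 against NT. Each is the 250 bases before the RefSeq start on GRCm38.p6, written along the gene from 5′ to 3′, with ACGTG or GCGTG on the printed strand in capitals. The windows are chr12:54203875-54204124 on the minus strand for Egln3, chr10:59951771-59952020 on the minus strand for Ddit4, chr2:71872974-71873223 on the plus strand for Pdk1 and chr11:78322823-78323072 on the plus strand for Aldoc, and for Pdk1 and Aldoc the window is the first of 2 of the gene.
Egln3: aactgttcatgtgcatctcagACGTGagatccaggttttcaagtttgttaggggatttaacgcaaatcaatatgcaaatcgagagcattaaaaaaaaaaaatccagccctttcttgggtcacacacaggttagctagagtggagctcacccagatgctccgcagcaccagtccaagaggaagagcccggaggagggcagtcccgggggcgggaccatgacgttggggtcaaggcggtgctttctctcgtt
Ddit4: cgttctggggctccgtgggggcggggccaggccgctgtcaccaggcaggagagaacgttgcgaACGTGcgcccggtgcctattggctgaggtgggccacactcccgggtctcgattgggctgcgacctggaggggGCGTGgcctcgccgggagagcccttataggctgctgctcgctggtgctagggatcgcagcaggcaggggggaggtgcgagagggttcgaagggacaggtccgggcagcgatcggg
Pdk1: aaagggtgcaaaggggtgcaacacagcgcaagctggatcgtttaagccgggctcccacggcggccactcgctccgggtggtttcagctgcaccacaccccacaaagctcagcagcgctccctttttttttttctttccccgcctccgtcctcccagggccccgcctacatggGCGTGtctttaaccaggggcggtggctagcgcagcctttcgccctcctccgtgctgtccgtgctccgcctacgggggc
Aldoc: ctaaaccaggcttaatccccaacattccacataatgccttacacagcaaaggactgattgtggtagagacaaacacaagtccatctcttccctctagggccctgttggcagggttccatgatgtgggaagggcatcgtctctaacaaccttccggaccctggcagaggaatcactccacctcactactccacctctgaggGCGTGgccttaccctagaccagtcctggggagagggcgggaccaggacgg
The core begins 229 bases before the start in Egln3, 187 and 115 in Ddit4, 78 in Pdk1 and 50 in Aldoc. ACGTG and GCGTG, which differ in their first base and so never share a match on one strand, were searched on both strands, and a gene was counted once. In all, 29 of the 32 members with a window (90.6%) held ACGTG or GCGTG in at least 1 window, beside 41.5% of 27025 genes. ACGTG alone was in 56.2% of the members and 18.5% of genes. The members were listed for being HIF targets or glycolytic genes, and both rising and falling members held the core, so the share describes the list and is no sign of binding. Ndrg1 had no window.

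Among the 17 glycolytic enzymes, Hk1, Pfkp, Aldoc and Ldha fell with TGFB2 and Eno2 rose. The 17 genes together took 1.275% ± 0.148 of all TPM in NT (SD, n = 3), 1.11% ± 0.074 with TGFB2, 1.38% ± 0.0309 with BMP4 and 1.18% ± 0.0151 with both. NT replicate 1 was at 1.11%, inside the TGFB2 range of 1.03% to 1.16%, while NT replicates 2 and 3 were at 1.32% and 1.40%. Pkm, Gapdh, Eno1, Aldoa and Ldha held the 5 highest levels in TPM, with means over all libraries of 2862, 2280, 1855, 1364 and 1328. Eno2, at 0.747 TPM, was the lowest member.

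**Figure D3:**
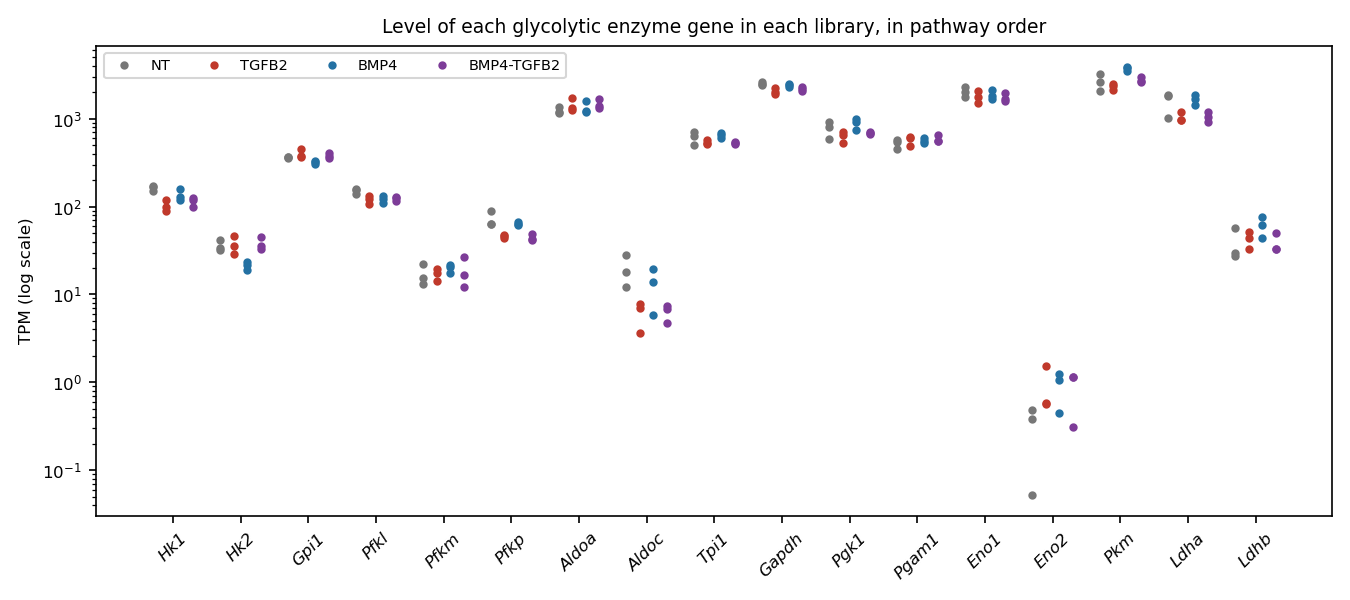
TPM of the 17 glycolytic enzyme genes in each of the 12 libraries on a log axis, in pathway order, 1 point per library and 1 colour per group. Levels run from Pkm, Gapdh and Eno1 at the top down to Eno2 at the bottom; Aldoc and Pfkp are lower in the groups with TGFB2.

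At the entry of glycolysis, Hk1, the ubiquitous hexokinase, had 385, 408 and 357 CPM in NT and 219, 243 and 276 CPM with TGFB2, with no overlap. It fell 1.58-fold with TGFB2 (log2 fold change -0.66 ± 0.11, edgeR adjusted p = 0.000903) and by 0.47 on the log2 scale with both ligands (edgeR adjusted p = 0.00575). Hk2, the hexokinase that HIF and insulin are known to induce, had 143, 125 and 113 CPM in NT, 174, 105 and 127 CPM with TGFB2, 88.3, 76.4 and 69.6 CPM with BMP4 and 168, 122 and 122 CPM with both. All BMP4 libraries were below all others. The fall with BMP4 was 1.6-fold (log2 fold change -0.68 ± 0.11, edgeR adjusted p = 0.00327) and lost its call without the block (edgeR adjusted p = 0.0763). The ratio of Hk1 to Hk2 in TPM was 4.09 to 4.94 in NT, 1.90 to 3.48 with TGFB2, 5.42 to 7.23 with BMP4 and 2.22 to 3.61 with both. Gpi1, which isomerises glucose 6-phosphate, was at 397 to 604 CPM and was called in no comparison.

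Phosphofructokinase commits sugar to glycolysis and has 3 isozymes. Pfkp, the platelet form, had 146, 114 and 105 CPM in NT and 79.0, 83.4 and 70.0 CPM with TGFB2, without overlap, and fell 1.58-fold (log2 fold change -0.66 ± 0.10, edgeR adjusted p = 0.000468). Its exons overlap those of Pitrm1, which averaged 75 CPM, or 79.6% of Pfkp, and had a log2 fold change of -0.11 (edgeR adjusted p = 0.337). The liver form Pfkl made up 55.2% to 70.3% of the TPM of the 3 genes and Pfkp 22.8% to 35.7%. Pfkl had a log2 fold change of -0.32 ± 0.12 with TGFB2 (edgeR adjusted p = 0.069). The muscle form Pfkm, at 22.9 to 36.7 CPM, shares exons with Senp1, which averaged 43.8 CPM, and was called in no comparison.

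Pfkfb4 and Pfkfb3 make or remove the activator of phosphofructokinase, fructose 2,6-bisphosphate. Pfkfb4 had 16.6, 16.7 and 22.2 CPM in NT and 26.8, 38.0 and 34.3 CPM with TGFB2, all above NT, a rise of 1.76-fold (log2 fold change 0.82 ± 0.13, edgeR adjusted p = 0.000812). Pfkfb3 followed the replicate number instead, with 52.4, 20.3 and 19.8 CPM in NT and 55.1, 27.7 and 22.9 CPM with TGFB2 (log2 fold change 0.22 ± 0.13, edgeR adjusted p = 0.237). The related Pfkfb2, which is no member, fell from 49.6 to 20.9 CPM (log2 fold change -1.25, edgeR adjusted p = 0.000148).

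Aldolase splits the 6-carbon sugar. Aldoc, the isozyme known from brain, had 30.5, 20.5 and 13.3 CPM in NT and 9.06, 9.02 and 4.26 CPM with TGFB2. The groups did not overlap, and the fall was 2.91-fold (log2 fold change -1.54 ± 0.20, edgeR adjusted p = 0.000197). Aldoa, the main form, had 915 to 1040 CPM in NT and 975 to 1410 with TGFB2 and did not pass (log2 fold change 0.19 ± 0.10, edgeR adjusted p = 0.194). The ratio of Aldoa to Aldoc in TPM was 48.2 to 96.0 in NT, 160 to 360 with TGFB2, 80.2 to 207 with BMP4 and 204 to 285 with both.

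The enzymes of the lower pathway were called by TGFB2 in few cases with all libraries, and more often without NT replicate 1. Tpi1, triose phosphate isomerase, had 467, 686 and 598 CPM in NT and 574, 499 and 494 CPM with TGFB2. Pgk1, phosphoglycerate kinase, had 629, 922 and 998.5 CPM in NT and 811, 591 and 708 CPM with TGFB2. In both, NT replicate 1 was the lowest NT library, and TGFB2 replicate 1 lay above it while TGFB2 replicates 2 and 3 lay below their NT partners. Neither passed (edgeR adjusted p = 0.37 for Tpi1 and 0.24 for Pgk1). Without NT replicate 1, 12 members fell with TGFB2 in place of 7, beside 17.6% of all genes in that fit. The additional 5 were Pfkl, Tpi1, Gapdh, Pgk1 and Pkm, with log2 fold changes of -0.46, -0.38, -0.40, -0.49 and -0.34. With both ligands against NT, 10 fell in place of 6 when NT replicate 1 was left out, beside 19.2% of all genes in that fit.

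Gapdh, the glyceraldehyde phosphate dehydrogenase often used as a reference gene, had 1852, 2136 and 1941 CPM in NT and 1827, 1530 and 1580 CPM with TGFB2, with a log2 fold change of -0.29 ± 0.11 (edgeR adjusted p = 0.0593). Its value is uncertain because 43 annotated near-copies, whose sequence lies at least 50% in Gapdh by 31-base words, held another 960 CPM, or 52.8% of Gapdh. The largest, Gm7336, averaged 682 CPM and fell with TGFB2 (log2 fold change -0.44, edgeR adjusted p = 0.0295). Pgam1, phosphoglycerate mutase, was at 468 to 703 CPM over all libraries, and its copy Pgam1-ps2 had 5% of its CPM. Eno1, the main enolase, was at 1895 to 2787 CPM. Neither was called in any comparison. Eno2, the neuronal enolase, had 0.373, 0.0841 and 0.12 CPM in NT and 0.711, 0.757 and 0.79 CPM with TGFB2, and rose by 2.01 ± 0.65 on the log2 scale (edgeR adjusted p = 0.0339). At under 1 CPM that call was lost with 7 of the 12 libraries left out in turn, NT replicates 2 and 3, all 3 TGFB2 libraries and BMP4 replicates 1 and 2, and the log2 fold change ran from 1.62 to 2.83, the highest without NT replicate 1.

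Pyruvate kinase, lactate dehydrogenase and the pyruvate dehydrogenase kinases decide what becomes of the carbon. Pkm was the most abundant member, with 3011, 3946 and 4781 CPM in NT, 3301, 3519 and 3548 CPM with TGFB2, 5468, 5593 and 5594 CPM with BMP4 and 4023, 4203 and 4033 CPM with both. The table is per gene, so the M1 and M2 splice forms are not told apart. Ldha, the subunit that favours lactate formation (GRCm38 chr7:46841475-46855627, plus strand), had 942, 1770 and 1721 CPM in NT, 948, 928 and 1109 CPM with TGFB2, 1417, 1709 and 1591 CPM with BMP4 and 910, 925 and 1141 CPM with both. NT replicate 1 lay with the TGFB2 libraries. Ldha fell 1.47-fold with TGFB2 (log2 fold change -0.56 ± 0.17, edgeR adjusted p = 0.0258), and replicate numbers 1, 2 and 3 gave 0.01, -0.93 and -0.63. The fall did not pass without the block (edgeR adjusted p = 0.072), nor without NT replicate 2, NT replicate 3, TGFB2 replicate 2 or TGFB2 replicate 3 (0.0841 to 0.123). Without NT replicate 1 it was -0.78 (edgeR adjusted p = 0.000623). Ldhb, the subunit that favours pyruvate, had 19.5 to 56.8 CPM over all libraries and was called in no comparison. The ratio of Ldha to Ldhb in TPM was 18.1 in NT replicate 1 and 62.5 and 66.6 in the other NT libraries, and 19.0 to 38.3 in all treated libraries.

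Pdk1, the kinase through which HIF is known to close pyruvate dehydrogenase (GRCm38 chr2:71873224-71903858, plus strand), had 60.7, 56.8 and 48.8 CPM in NT and 29.4, 20.8 and 21.8 CPM with TGFB2. With BMP4 it had 40.8, 42.7 and 34.4 CPM, and with both 25.4, 23.0 and 21.4 CPM. The NT, BMP4 and TGFB2 ranges did not overlap, in that order from high to low. The fall with TGFB2 was 2.35-fold (log2 fold change -1.23 ± 0.11, edgeR adjusted p = 2.58e-05), with -1.03, -1.43 and -1.14 by replicate number. Pdk3 had 33.9, 40.9 and 46.2 CPM in NT and 23.4, 35.4 and 36.3 CPM with TGFB2. Its groups overlapped and its fall of 0.38 ± 0.09 on the log2 scale (edgeR adjusted p = 0.0086) was seen in each replicate number. Without the block it did not pass (edgeR adjusted p = 0.269).

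BMP4 alone moved fewer members. Against NT 4 rose and 3 fell, beside 8.6% and 6.78% of all genes, shares again near those of the members. Without the replicate block 1 rose and 1 fell, beside 489 and 344 of the 15319 genes tested. The median log2 fold change was 0.11 over the members and -0.01 over all genes. The fall of Egln3 given above and the falls of Hk2 and Pdk1 were the 3 downward calls, Pdk1 by 0.47 ± 0.11 on the log2 scale (edgeR adjusted p = 0.0176, and 0.112 without the block). Pkm rose 1.45-fold (log2 fold change 0.54 ± 0.13, edgeR adjusted p = 0.0187, and 0.0762 without the block), with every BMP4 library above every NT library. Adm rose by 2.06 ± 0.40 (edgeR adjusted p = 0.00786, and 0.158 without the block), Ddit4 by 0.75 ± 0.17 (0.0146, and 0.316 without the block) and Eno2, at 1.02 CPM on average, by 2.44 ± 0.65 (0.031). The number of rising members was 1 without BMP4 replicate 1 or BMP4 replicate 3, 2 without NT replicate 2, NT replicate 3 or BMP4 replicate 2, and 7 without NT replicate 1. Over all genes 731 and 724 rose without BMP4 replicates 1 and 3. Without NT replicate 2, NT replicate 3 and BMP4 replicate 2, 784, 992 and 926 did. With NT replicate 1 left out 1367 rose, beside 1318 with all libraries. Pkm lost its call without any BMP4 library (log2 fold change 0.38 to 0.69 over all libraries left out), Ddit4 when NT replicate 2, NT replicate 3, BMP4 replicate 1 or BMP4 replicate 3 was dropped (0.58 to 0.96), and Eno2 when any BMP4 library or either of NT replicates 2 and 3 was (2.03 to 3.32). Leaving out NT replicate 1 added Ldhb, Vegfa and Mxi1, whose log2 fold changes there were 1.07, 1.11 and 0.87. Egln3 kept its call with any single library left out. Hk2 and Adm did as well. Pdk1 lost it without NT replicate 2, BMP4 replicate 1 or BMP4 replicate 3 (-0.43 to -0.55 over all libraries left out).

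TGFB2 was tested a second time in the presence of BMP4, between groups other than TGFB2 and NT. Both tests came from the same fit over all 12 libraries. They share its normalisation, variance estimates and replicate block, so they are not independent. In BMP4-TGFB2 against BMP4, 5 members rose and 6 fell, beside 10.7% and 12% of all genes, with medians of -0.14 over the members and 0.01 over all genes. Without the block 2 rose and 2 fell, beside 649 and 763 of the 15319 genes tested. The 4 members Pfkfb4, Vegfa, Ankrd37 and Ddit4 rose in both tests of TGFB2, which is 4 of the 8 that rose without BMP4 and 4 of the 5 that rose with it. Pfkp, Aldoc, Ldha, Pdk1 and Egln3 fell in both, 5 of 7 and 5 of 6, and 0 members went opposite ways. Over all genes, 47.4% of those that rose without BMP4 and 83% of those that rose with it rose in both, 48.5% and 77.4% fell in both, and 18 went opposite ways.

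In that second test Ddit4 rose 3.41-fold (log2 fold change 1.77 ± 0.17, edgeR adjusted p = 0.000108) and Vegfa 2.96-fold (1.56 ± 0.26, edgeR adjusted p = 0.00224). Vegfa lost its call without the block (edgeR adjusted p = 0.0984), as did Pfkfb4 (0.69 ± 0.13, 0.00397 with and 0.0758 without it) and Egln3 (-1.48 ± 0.18, 0.000357 with and 0.0954 without it). Pdk1 fell by 0.77 ± 0.11 (edgeR adjusted p = 0.00108) and Pfkp by 0.56 ± 0.10 (0.00238). Ankrd37 rose by 1.56 ± 0.44 (edgeR adjusted p = 0.0292). It lost the call without the block (0.21) and when any of 5 libraries, all 3 of BMP4-TGFB2 and BMP4 replicates 1 and 2, was left out (log2 fold change 1.17 to 2.01). Aldoc (-0.85 ± 0.19, edgeR adjusted p = 0.0113), Ldha (-0.68 ± 0.17, 0.0173) and Pkm (-0.45 ± 0.13, 0.0288) fell with the block only (0.215, 0.079 and 0.0941 without it). The number of falling members was 3 without BMP4 replicate 1 and 3 without BMP4-TGFB2 replicate 2, where Aldoc, Ldha and Pkm were lost. It was 4 without BMP4 replicate 2, where Pkm and Ldha were lost, and 4 without BMP4-TGFB2 replicate 1, where Aldoc and Pkm were. Over all genes 1041, 1285, 1307 and 1150 fell in these fits, in the same order, beside 1842 with all libraries. Pkm also lost its call without replicate 3 of either group. Hk2 rose here by 0.79 ± 0.11 (edgeR adjusted p = 0.00089), and its BMP4-TGFB2 libraries were all above its BMP4 libraries.

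With both ligands against NT, 8 members rose and 6 fell, beside 20.4% and 21% of all genes, again near the members' shares. Without the block 5 rose and 5 fell, beside 2033 and 1974 of the 15319 genes tested. The median was 0.03 over the members and 0 over all genes. This comparison shares its NT libraries with those above. Ddit4 rose 5.74-fold (log2 fold change 2.52 ± 0.18, edgeR adjusted p = 3.83e-06), Vegfa 4.82-fold (2.27 ± 0.27, 0.000106) and Ankrd37 6.26-fold (2.65 ± 0.47, 0.00141). Egln1 (log2 fold change 0.31, edgeR adjusted p = 0.00823), Adm (1.42, 0.0171), Eno2 (1.93, 0.0413) and Ldha (-0.54, 0.0279) passed with the block only, at edgeR adjusted p = 0.133, 0.208, 0.0561 and 0.0765 without it. Adm was also lost without BMP4-TGFB2 replicate 1 (0.0579), Eno2 when any of 9 libraries was left out (log2 fold change 1.44 to 2.69), and Ldha without replicate 2 or 3 of NT or of BMP4-TGFB2 (-0.76 to -0.35). Pdk1 fell 2.36-fold (-1.24 ± 0.11, edgeR adjusted p = 1.96e-05).

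Adding BMP4 to TGFB2 gave no member that passed. In BMP4-TGFB2 against TGFB2, 0 of 33 members rose and 0 fell in edgeR, beside 0.0131% and 0.0261% of all genes, and 2 members (6.06%) had an unadjusted p under 0.05, beside 6.89% of all genes. These were Pfkfb3, with a log2 fold change of -0.49 ± 0.14 (edgeR adjusted p = 0.363), and Pdk3, with 0.24 ± 0.09 (edgeR adjusted p = 0.616). DESeq2 and limma also called 0 members. A fit on the 6 libraries of these groups alone called Pkm and Ddit4 as rising and Pfkfb3 as falling. That fit called 249 genes as rising and 251 as falling of 14253 tested. The median log2 difference was -0.01 over the members and 0 over all genes.

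The interaction asks whether the effect of TGFB2 differs with BMP4 present. It was positive for 2 members and negative for 0, beside 0.588% and 1.24% of all genes. Egln3 changed by -3.04 with TGFB2 alone and by -1.48 on top of BMP4, a difference of 1.56 ± 0.24 (edgeR adjusted p = 0.0149). Hk2 changed by 0.05 and 0.79, a difference of 0.74 ± 0.16 (edgeR adjusted p = 0.0482). Without the block neither passed (edgeR adjusted p = 0.491 and 0.475). Leaving out TGFB2 replicate 2, BMP4-TGFB2 replicate 1 or BMP4-TGFB2 replicate 3 also ended the call for Egln3 (0.0512 to 0.058), and 11 of the 12 libraries, all but NT replicate 1, did so for Hk2 (0.0569 to 0.127). In edgeR 9 members (27.3%) had an unadjusted p under 0.05 for the interaction, beside 16.4% of all genes. Adm, at -2.42 ± 0.55, had an edgeR adjusted p of 0.0609 and passed in DESeq2 and limma voom.

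Hypoxia response genes and others also differed by replicate number, as did 25.2% of all genes tested. Of the 15 members that differed by replicate number, 9 were highest in replicate 1 in all 4 groups: Hk2, Pfkfb3, Aldoa, Aldoc, Vegfa, Adm, Ankrd37, Ndrg1 and Ddit4. The share of all genes with that order was not counted, so the order is not shown to be particular to these members. On CPM over TMM-normalised totals Vegfa was so in 3 of the 4. Pfkfb4 and Pdk3 were lowest in replicate 1 in all 4. Ndrg1 averaged 173, 81.6 and 80.3 CPM over the 4 libraries of replicates 1, 2 and 3 (edgeR adjusted p = 7.84e-05). Pfkfb3 averaged 45.3, 23.6 and 20.3 CPM (edgeR adjusted p = 0.000375). Vegfa averaged 332, 164 and 247 CPM and Ddit4 548, 345 and 365.5 CPM. Egln3 was highest in replicate 2 in all 4 groups, at 12.2, 27.3 and 12.6 CPM by replicate number. Car9 and Egln1 were highest in replicate 3 in all 4 groups, Car9 with 1.76, 3.01 and 4.66 CPM.

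**Figure D4:**
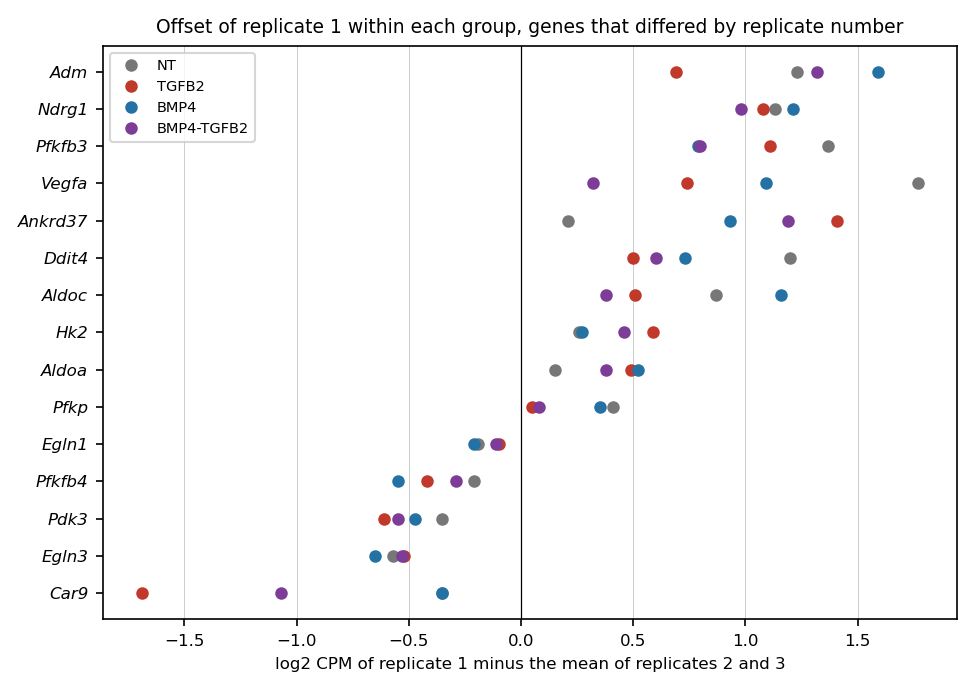
For the 15 genes that differed by replicate number, log2 CPM of replicate 1 minus the mean of replicates 2 and 3, 1 point per group. Adm, Ndrg1 and Pfkfb3 lie to the right of 0.5 in every group, and Pdk3, Egln1, Egln3, Pfkfb4 and Car9 lie to the left of 0 in every group.

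Genes of the amino acid and endoplasmic reticulum stress response around ATF4, a transcription factor known to induce Ddit4 and Vegfa too, moved with replicate number and with TGFB2. Their summed level was 1690 to 1846 CPM in the 4 replicate 1 libraries and 746 to 1091 CPM in the other 8. By replicate number 9 of 10 differed, beside 25.2% of all genes. With TGFB2 6 rose and 3 fell, beside 18.7% and 19.2% of all genes. Of the 6 that rose, 0 passed without the block (edgeR adjusted p = 0.181 to 0.764). Trib3 rose by 1 on the log2 scale (edgeR adjusted p = 4.69e-05) and Atf4 by 0.54 (0.00136). Phgdh, the first enzyme of serine synthesis, which draws on a glycolytic intermediate, fell by 1.11 (6.84e-05). Vldlr, a lipoprotein receptor, fell by 1.42 (0.000463, and 0.0777 without the block). Cell cycle genes moved too: 7 of 12 fell with TGFB2 and 12 of 12 differed by replicate number, beside 19.2% and 25.2% of all genes. Of these 7, 0 passed without the block (edgeR adjusted p = 0.198 to 0.455). Their sum was 1903 to 2866 CPM in NT and 587 to 2054 CPM with TGFB2, and the lowest libraries were replicate 1 of TGFB2 and of BMP4-TGFB2, at 587 and 417 CPM. Mki67 fell from 259 to 94.8 CPM (log2 fold change -1.98, edgeR adjusted p = 0.0155, and 0.232 without the block). The part of either set in the changes of the members was not tested.

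Transport and the neighbouring pathways were read from lists chosen by function. Of 4 glucose and lactate carriers 2 rose and 1 fell with TGFB2, beside 18.7% and 19.2% of all genes. Slc2a1, the main glucose carrier, rose from 186 to 278 CPM (log2 fold change 0.54, edgeR adjusted p = 0.00399). Slc16a3, the lactate exporter that HIF is known to induce, rose from 1.47 to 9.33 CPM (2.51, edgeR adjusted p = 0.0003). Slc16a1, a carrier for uptake and release of lactate, fell from 97.5 to 38.6 CPM (-1.32, edgeR adjusted p = 0.00376).

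Of 11 tested genes of the pyruvate dehydrogenase complex, its regulators and the mitochondrial pyruvate carrier, 1 rose and 7 fell with TGFB2, beside 18.7% and 19.2% of all genes, and 1 rose and 4 fell without the block. Pdha1, the catalytic subunit, fell from 297 to 212 CPM (log2 fold change -0.50, edgeR adjusted p = 0.000563). Mpc1, a subunit of the carrier, fell by 0.61 (edgeR adjusted p = 0.0103). Of the phosphatases that undo the kinases, Pdp2 fell by 1.18 (edgeR adjusted p = 0.000419) and Pdp1 rose by 0.72 (0.00458). Pcx, pyruvate carboxylase, fell from 165 to 36.5 CPM (-2.23, edgeR adjusted p = 2.37e-05), and of 5 tested gluconeogenesis genes 0 rose and 2 fell, the other being Pck2 by 0.33 (0.0338, and 0.508 without the block). Of 11 further glycolysis genes 1 rose and 2 fell, Bpgm by 1 upward (edgeR adjusted p = 0.000102) and Galm by 1.30 downward (0.00657) beside Pfkfb2.

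Among 34 other genes known to respond to hypoxia, 18 rose and 7 fell with TGFB2, beside 18.7% and 19.2% of all genes, and 14 rose and 7 fell without the block. The median log2 fold change was 0.43, beside 0 over all genes. Slc2a1 is in this list and in that of the carriers. Plod1, a collagen lysyl hydroxylase, rose by 1.68 on the log2 scale (edgeR adjusted p = 1.61e-06) and Bhlhe40, a transcriptional repressor, by 1.90 (4.59e-06). Car12, a carbonic anhydrase related to Car9, fell from 104 to 4.05 CPM (-4.49, edgeR adjusted p = 5.84e-06).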

How the data were processed

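RNA of 12 libraries, 3 for each of 4 groups, was enriched for poly(A) and sequenced, per the labels' protocols. The authors deposited estimated counts per gene from Salmon and TPM from the same source, which relates counts to gene length and to the library. The submitters' processing notes name bcl2fastq 2.17, STAR 2.7.5b, Salmon 1.2.1 and GRCm38.p6, and their roles and settings are not given in these sources. Libraries are unstranded per the file headers, so overlapping genes on opposite strands cannot be separated. Of the estimated counts 82.85% were whole, and all were rounded.

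Tests used edgeR 4.0.16 in R 4.3.3: quasi-likelihood fits of group plus replicate number over all 12 libraries, TMM normalisation, filterByExpr with a minimum count of 10, and Benjamini-Hochberg adjustment over 15319 genes at 0.05. The text names every member and, of each other list, up to 4 genes with the smallest p among those called by the test over the 4 groups, and always Slc2a1, Slc16a3, Vhl, Epas1, Mki67 and Epcam; a gene that this rule picks is not reported here. The deposited sample table gives 1 sequencing batch for all libraries. CPM are counts over each library's raw total; on TMM-normalised totals, a scale compared after seeing the data, they were 0.974 to 1.03 times these, and 5 of 165 verdicts on whether a member's groups overlapped changed (Hk1 2 times, Gapdh, Pfkl and Aldoa), none of them stated in the text, and the replicate order of Vegfa in 1 group. Each SE is the absolute log2 fold change divided by the square root of its quasi-likelihood F statistic, so it restates that test. The code was tested on simulated data. The members and lists were chosen with earlier results of these data known.

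Replicate numbers served as the block because the rule that chose the genes names it. Deviations of same-numbered libraries correlated at 0.16 to 0.44 for BMP4 against NT, 0.23 to 0.5 for BMP4-TGFB2 against TGFB2 and 0.15 to 0.35 for BMP4-TGFB2 against BMP4. They correlated at 0.08 to 0.3 for TGFB2 against NT and 0.03 to 0.23 for BMP4-TGFB2 against NT, where the pairing threshold of 0.1 was not met for every pair, so unblocked values or counts are given beside member calls and lists that change. Alternatives were no block, other normalisation and filter, DESeq2 1.42.0, limma 3.58.1 (voom, and log2(TPM + 1) or log2(TPM + 0.1)), fits on the compared groups alone, and each library or replicate number left out. Positions are from GENCODE M21 on GRCm38, and promoters from RefSeq.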

Additional observations from a re-analysis of the deposited data

Results flagged for a closer look

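The effect of TGFB2 on Egln3, the inducible HIF prolyl hydroxylase, differed with BMP4 present. It was a log2 fold change of -3.04 without BMP4 and -1.48 with it, and the interaction term was 1.56 (edgeR adjusted p = 0.0149). BMP4 alone had lowered Egln3 by 1.89 on the log2 scale, and the groups with TGFB2 stood at 3.17 to 9.31 CPM. Hk2, a hexokinase, also differed, with 0.05 without BMP4 and 0.79 with it, an interaction of 0.74 (edgeR adjusted p = 0.0482). BMP4 alone lowered Hk2 by 0.68. All 4 groups enter each interaction, and both calls rested on the replicate block.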

How the results depend on the processing

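Without the replicate block, members that rose and fell numbered 5 and 5 for TGFB2 against NT, 1 and 1 for BMP4 against NT, 5 and 5 for BMP4-TGFB2 against NT, 2 and 2 for BMP4-TGFB2 against BMP4, and 0 and 0 for the interaction, and 10 differed among groups. Over all 15319 genes, in the same order, these counts were 1730 and 1693, 489 and 344, 2033 and 1974, 649 and 763, and 8 and 16. Among groups 3373 genes differed. Fits on the compared groups alone gave 4 rising members for TGFB2 against NT, 7 for BMP4 against NT and 5 for BMP4-TGFB2 against NT. Over all genes 2021 of 14367, 1244 of 14173 and 1974 of 14288 rose in these fits. For BMP4-TGFB2 against TGFB2 such a fit gave 2 rising and 1 falling members, beside 249 and 251 of the 14253 genes in that fit. DESeq2 and no filter each gave 7 rising members for BMP4 against NT and 1 negative interaction, as did voom for the interaction. Over all genes 1632 of 15022 in DESeq2 and 1281 of 30302 with no filter rose for BMP4 against NT. Negative interactions over all genes numbered 526 in DESeq2, 403 with no filter and 244 in voom. Limma on log2(TPM + 1) and on log2(TPM + 0.1) gave 1 positive interaction, beside 34 and 17 of 13341 genes.

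Leaving out 1 library or replicate number gave 4 to 10 rising and 5 to 12 falling members for TGFB2 against NT, 0 to 7 and 1 to 4 for BMP4 against NT, 4 to 9 and 4 to 10 for BMP4-TGFB2 against NT, 3 to 5 and 3 to 8 for BMP4-TGFB2 against BMP4, and 0 to 2 positive and 0 to 1 negative interactions. Among groups 10 to 23 differed. Over all genes, these fits gave 1548 to 2875 rising and 1592 to 2958 falling for TGFB2 against NT. For BMP4 against NT they gave 446 to 1367 rising and 272 to 975 falling genes. The causes were not tested. Over all comparisons 49 calls were made on single members, of which 21 passed in every alternative run: 9 of 15 for TGFB2 against NT (Hk1, Pfkp, Pfkfb4, Aldoc, Pdk1, Vegfa, Egln3, Ankrd37 and Ddit4), 1 of 7 for BMP4 against NT (Egln3), 8 of 14 for BMP4-TGFB2 against NT, 3 of 11 for BMP4-TGFB2 against BMP4 (Hk2, Pdk1 and Ddit4) and 0 of 2 interactions. The share of calls on all genes that passed in every alternative run was not counted. No single-gene value changed sign where the gene passed in the main or the alternative fit. Sign changes of genes that passed in neither were not counted. The replicate test without block, on the compared groups alone or with a replicate number left out, and fits on compared groups for the interaction and group test, were not run. Eno2 averaged 0.66 CPM and lost its call for TGFB2 against NT with 7 of 12 libraries left out in turn, while Ankrd37, at 1.85 CPM, kept that call in every alternative.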
